A study of Homo sapiens with 6 samples.

Results

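TP73, MDM2, MDM4, CDKN1A, CDKN1B and RB1, genes of the p53 network and of the brakes on the cell cycle, were followed through a pooled CRISPR knockout screen. They were taken by gene symbol from the guide table, which held all 6 of them among 7093 genes, with 10 guides each, 60 of 71526 guides in all. The screen was run in HAP1 cells, a nearly haploid line from a human chronic myeloid leukaemia, and guides were counted in genomic DNA. The groups were HAP1 cells with the SETD2-mutant genotype (2 samples), parental HAP1 cells (2 samples) and the guide library (2 samples). Both cell lines carried the same guide library, were kept in puromycin and were grown for 12 doublings. The labels name 1 SETD2-mutant genotype without saying how many clones it stands for, and do not give the step at which the library was sampled. SETD2 is the enzyme that trimethylates lysine 36 of histone H3.

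p53 and its relative p73, the product of TP73, are transcription factors that arrest or kill cells after damage. MDM2 is the ubiquitin ligase that marks p53 for destruction, and MDM4 is its partner, which covers the activating domain of p53. The p53 target CDKN1A encodes p21 and CDKN1B encodes p27, both inhibitors of cyclin-dependent kinases. RB1 encodes the retinoblastoma pocket protein, which holds E2F factors inactive until cyclin-dependent kinases phosphorylate it. In a knockout screen, guides against a brake become more frequent when its loss speeds growth, and guides against a gene that cells need become rarer.

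A log2 change is the mean over the 10 guides of a gene of the edgeR log2 fold change per guide, with its standard error (SE) over guides. Robust rank aggregation (RRA), a one-sided test of whether the guides of a gene rank together at one end, gave the p-value per gene. A gene was called enriched or depleted at a Benjamini-Hochberg adjusted p below 0.05 over 7090 tested genes. Guides to 1 gene share their target and are not replicates of a condition, and the replicates of a line came from 1 transduction. The edgeR p-values per guide thus cover no more than the spread among these samples. The RRA p-value takes the guides of a gene as independent. It measures how far their ranks agree, not the spread between samples. With 2 samples against 2, an exact two-sided permutation test of a single value cannot go below 0.333, so none is given.

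Total counts were 25082426 and 33878004 in SETD2-mutant samples, 34003792 to 38197301 in parental samples and 34679351 to 38428425 in library samples. No guide of the 6 genes had fewer than 97 counts in any sample. SETD2 itself was not called in SETD2-mutant cells over library (-0.61, SE 0.481) and was depleted in parental cells over library (-1.12, SE 0.308, adjusted p = 0.000298 by edgeR and RRA). Between the lines SETD2 was enriched in SETD2-mutant cells (0.50, SE 0.216, adjusted p = 0.00624 by edgeR and RRA), a call lost without SETD2-mutant replicate 2. Counts were scaled with TMM factors, so that most guides lie near 0 in each comparison. The table also held 100 guides named dummyguide, a term the sources used here do not explain, which stood at median log2 changes from library of 0.87 and 0.92 in SETD2-mutant samples and 0.65 and 0.74 in parental samples. Scaling on them moved the median of all genes by -0.93 in SETD2-mutant cells over library, by -0.72 in parental cells over library and by -0.21 between the lines. "Enriched" and "depleted" below are therefore relative to the other genes. Gene means and list medians whose sign turned under that scaling are named below, and single guides, medians over guides and medians of ID classes were read on the TMM scale alone.

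TP73 guides were enriched in parental cells, MDM2 guides were depleted in both lines, and CDKN1A and CDKN1B stayed closest to 0 against library on the TMM scale. RB1 was enriched in SETD2-mutant cells. By edgeR and RRA, 1 of 6 genes was enriched and 1 depleted in SETD2-mutant cells over library, RB1 and MDM2. The same counts, 1 and 1, were found in parental cells over library, where the genes were TP73 and MDM2. Over all 7090 genes, 1.11% were enriched in either line over library, and 9.04% were depleted in SETD2-mutant cells and 9.9% in parental cells. Between the lines 0 of 6 genes were called by edgeR and RRA, where 1.28% of all genes were depleted and 1.03% enriched. At an unadjusted RRA p under 0.05, 1 gene, TP73, was depleted and none was enriched, where 7.53% and 6.84% of all genes were. By limma on gene means 3 of 6 genes, TP73, CDKN1A and CDKN1B, were depleted between the lines, beside 22% of all genes depleted and 12.6% enriched. By summed counts per gene MDM4 was depleted as well, beside 21.7% of all genes depleted and 19.3% enriched.

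**Figure D1:**
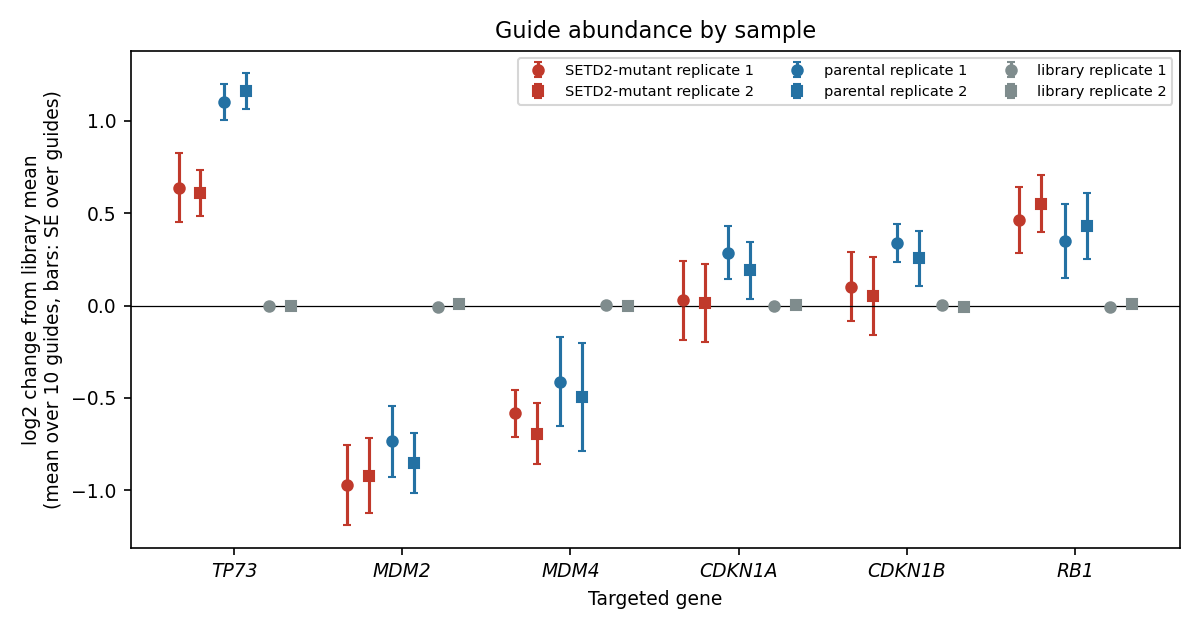
Mean log2 change from the library mean over the 10 guides of each gene (vertical axis) in each of the 6 samples, with SETD2-mutant samples in red, parental samples in blue, library samples in grey, and bars for the SE over guides. TP73 stands at 0.64 and 0.61 in SETD2-mutant samples and 1.10 and 1.16 in parental samples, MDM2 lies below 0 in all 4 cell samples, and with scaling on dummyguide guides TP73 in SETD2-mutant cells, RB1, CDKN1A and CDKN1B move below 0.

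TP73 (chromosome 1, 3652516 to 3736201, GRCh38.p14) had the largest gain of the 6 genes in parental cells. Its guides summed to 307 and 285 CPM (counts scaled to a common total) in the SETD2-mutant samples, 397 and 413 CPM in the parental samples, and 181 and 182 CPM in the library samples. Both lines thus lay above the library without overlap, and both SETD2-mutant samples lay below both parental samples.

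In SETD2-mutant cells over library the mean log2 change of TP73 was 0.64 (SE 0.145, a 1.56-fold level), with 9 of 10 guides up, and it was not called (adjusted p = 0.0648 by edgeR and RRA). Single guides passed the edgeR test upward in 7 of 10 cases, against 22.2% of all guides. Of 18 alternatives with a test, 7 called TP73 enriched and 11 did not. Each fit without 1 of the library or SETD2-mutant samples called it, and so did limma on gene means and summed counts per gene, under which 23.8% and 41.7% of all genes were enriched. The adjusted p was 0.239 with only the groups compared, 0.2005 without parental replicate 1 and 0.208 without parental replicate 2. In parental cells over library the change was 1.14 (SE 0.0824, a 2.20-fold level, adjusted p = 5.94e-06 by edgeR and RRA). All 10 guides were up and all 10 passed the edgeR test for single guides, against 18.9% of all guides. The mean change ranked at place 5 of 7090 genes from the top in parental cells and at place 85 in SETD2-mutant cells. With scaling on dummyguide guides, TP73 stayed enriched in parental cells (0.42, adjusted p = 1.77e-07) and turned to -0.29 in SETD2-mutant cells.

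The TP73 guides had little spread in parental cells. The lowest stood at 0.83 and the highest at 1.54, an SD of 0.261 over guides, where the median SD of all genes was 0.621 and only 1.21% of genes had a smaller one. In SETD2-mutant cells the same guides ran from -0.48 to 1.07, with an SD of 0.457. Guide 10 in table order was the one below 0 there. It had 12.0 and 14.7 CPM in SETD2-mutant samples, 27.6 and 39.2 CPM in parental samples and 18.4 and 19.0 CPM in library samples, so it lay below the library in one line and above it in the other. Guide 6, the highest in parental cells, had 37.8 and 34.5 CPM in SETD2-mutant samples, 59.4 and 62.7 CPM in parental samples and 21.7 and 20.3 CPM in library samples.

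Between the lines TP73 stood at -0.50 (SE 0.132) in SETD2-mutant over parental cells, with 9 of 10 guides down and 4 of 10 passing as single guides, against 12.8% of all guides. The gene was not called (adjusted p = 0.197 by edgeR and RRA). Limma on gene means called it depleted (-0.51, adjusted p = 0.00120), as it did 1561 of 7090 genes. Summed counts also called it depleted by edgeR (-0.45, adjusted p = 0.000181), as they did 1540 genes.

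**Figure D2:**
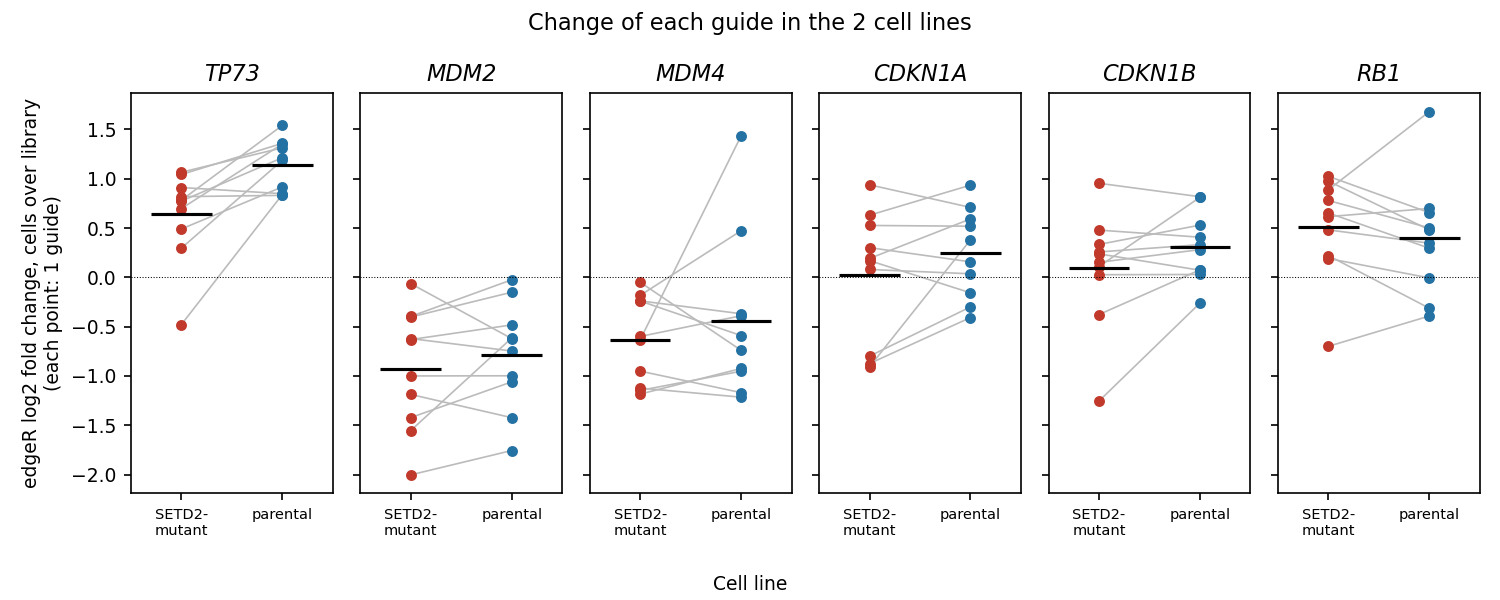
edgeR log2 fold change over library of each of the 10 guides per gene (vertical axis), in SETD2-mutant cells (red, left) and parental cells (blue, right), with grey lines joining the same guide and black bars for the mean. TP73 guides lie between 0.83 and 1.54 in parental cells, and 1 MDM4 guide stands at -0.63 in SETD2-mutant and 1.43 in parental cells.

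MDM2 (chromosome 12, 68808172 to 68850686) was depleted in both lines. Its guides summed to 117 and 119 CPM in SETD2-mutant samples, 134 and 121 CPM in parental samples, and 207 and 209.6 CPM in library samples. All 4 cell samples lay below both library samples, and the SETD2-mutant samples lay just below the parental ones. The log2 change was -0.93 (SE 0.193, adjusted p = 0.0358 by edgeR and RRA) in SETD2-mutant cells over library, and -0.79 (SE 0.170, adjusted p = 0.0189) in parental cells over library. All 10 guides were down in each line and 7 of 10 passed as single guides in each, against 23.7% of all guides in SETD2-mutant cells and 21.1% in parental cells.

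The MDM2 loss was moderate: guides ran from -2.003 to -0.06 in SETD2-mutant cells and from -1.76 to -0.03 in parental cells. The strongest was guide 4, with 4.39 and 2.87 CPM in SETD2-mutant samples, 3.85 and 4.72 CPM in parental samples and 14.3 and 14.6 CPM in library samples. Guide 1 differed most between the lines, with 7.14 and 9.44 CPM in SETD2-mutant samples and 16.9 and 15.01 CPM in parental samples. It was the 1 MDM2 guide that passed between the lines (-0.94), where 12.8% of all guides passed downward. For the gene, the difference was -0.14 (SE 0.128, 7 of 10 guides down) and was not called (adjusted p = 1 by edgeR and RRA).

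Both MDM2 calls lay near the threshold. With the RRA rank share limit set to 0.1 they were lost (adjusted p = 0.942 in SETD2-mutant and 1 in parental cells). In SETD2-mutant cells the adjusted p was 0.0526 without library replicate 2 and 0.0900 without SETD2-mutant replicate 2. In parental cells it was 0.136 without parental replicate 1, 0.0862 without parental replicate 2, 0.0695 without SETD2-mutant replicate 1 and 0.0716 without SETD2-mutant replicate 2.

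MDM4 (chromosome 1, 204516406 to 204558120), the partner of MDM2, had values below 0 and was not called in any of the 3 comparisons. Its guides summed to 127 and 117 CPM in SETD2-mutant samples, 147 and 147 CPM in parental samples and 187 and 188 CPM in library samples, so the 3 groups did not overlap. The log2 change was -0.64 (SE 0.140, adjusted p = 0.396 by edgeR and RRA) in SETD2-mutant cells and -0.44 (SE 0.260, adjusted p = 0.149) in parental cells over library. With scaling on dummyguide guides the values were -1.57 (adjusted p = 0.0901 by edgeR and RRA) and -1.17 (adjusted p = 0.0502), neither called. Under that scaling MDM2 kept its call in SETD2-mutant cells and lost it in parental cells (adjusted p = 0.0700 by edgeR and RRA). In SETD2-mutant cells all 10 guides were down and 6 of 10 passed as single guides, against 23.7% of all guides. In parental cells 6 of 10 passed downward and 2 of 10 upward, against 21.1% and 18.9% of all guides.

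Guide 2 of MDM4 stood apart. It had 6.06 and 7.87 CPM in SETD2-mutant samples, 28.9 and 29.8 CPM in parental samples and 11.5 and 10.2 CPM in library samples. It was thus below the library in one line and above it in the other, with replicates of a line close together, and stood at -2.07 between the lines. The median over guides, which such a guide moves little, was -0.62 in SETD2-mutant cells and -0.67 in parental cells over library, and -0.05 between the lines where the mean was -0.19 (SE 0.240, adjusted p = 0.832 by edgeR and RRA). Guide 5 ran the other way between the lines at 0.69, with 12.6 and 15.9 CPM in SETD2-mutant samples and 9.07 and 8.62 CPM in parental samples. The SD over MDM4 guides exceeded that of 74.9% of genes in parental cells over library and of 77.6% between the lines. MDM4 was called depleted in SETD2-mutant cells with the RRA limit set to 0.5 (adjusted p = 0.0312), where 10.2% of all genes were depleted. Limma on gene means and summed counts per gene called it depleted in both lines. They depleted 38% and 25.7% of all genes in SETD2-mutant cells, and 31.3% and 23.4% in parental cells over library, where summed counts also enriched 42.3%.

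TP73, MDM2 and MDM4 share the guide ID class written DDR in the table, whose meaning the sources used here do not give. The 198 genes of that class had a median log2 change of -1.11 in SETD2-mutant cells and -1.07 in parental cells over library, and 52% and 55.6% of them were depleted. Within it TP73 had the highest mean change in parental cells and took place 2 in SETD2-mutant cells. MDM2 took place 96 and MDM4 place 83 from the top in SETD2-mutant cells, and places 89 and 73 in parental cells, so both lay near the middle of their class.

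CDKN1A (chromosome 6, 36676463 to 36687332), which encodes p21, was not called in any comparison. Its guides summed to 162 and 158 CPM in SETD2-mutant samples, 197 and 181 CPM in parental samples and 151 and 149 CPM in library samples. Both lines lay above the library, the SETD2-mutant samples by little. The log2 change was 0.03 (SE 0.209, adjusted p = 1 for enrichment by edgeR and RRA) in SETD2-mutant cells, and 0.25 (SE 0.143, adjusted p = 0.670) in parental cells over library, values that turned to -0.91 and -0.48 with scaling on dummyguide guides.

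The mean of CDKN1A in SETD2-mutant cells joined guides of opposite sign. Of 10 guides, 3 passed downward and 3 upward as single guides, where 23.7% and 22.2% of all guides did. They ranged from -0.91 to 0.94, with an SD of 0.661, beside a median SD of 0.685 over all genes. Guide 9 had 11.2 and 8.996 CPM in SETD2-mutant samples, 25.003 and 24.2 CPM in parental samples and 19.0 and 18.8 CPM in library samples. Guide 5 had 22.3 and 19.2 CPM in SETD2-mutant samples, 15.2 and 20.2 CPM in parental samples and 10.03 and 11.6 CPM in library samples. In parental cells 4 of 10 guides passed upward and 0 downward, where 18.9% and 21.1% of all guides did. Between the lines the gene stood at -0.22 (SE 0.152, 5 of 10 guides down, adjusted p = 0.999 by edgeR and RRA). Guide 9 was the 1 guide that passed (-1.29), where 12.8% of all guides passed downward and 11.5% upward.

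CDKN1B (chromosome 12, 12717368 to 12722369), which encodes p27, was close to CDKN1A in every comparison. Its guides summed to 202 and 195 CPM in SETD2-mutant samples, 219.6 and 217 CPM in parental samples and 170 and 169 CPM in library samples, without overlap between the 3 groups. The log2 change was 0.09 (SE 0.184, adjusted p = 1 by edgeR and RRA) in SETD2-mutant cells, and 0.31 (SE 0.110, adjusted p = 0.945) in parental cells over library, which turned to -0.84 and -0.41 with scaling on dummyguide guides. In SETD2-mutant cells 1 guide passed upward and 1 downward, where 22.2% and 23.7% of all guides did. In parental cells 3 passed upward and 0 downward, where 18.9% and 21.1% of all guides did. Guide 7, the downward one in SETD2-mutant cells, had 7.22 and 4.05 CPM in those samples. It had 13.7 and 8.51 CPM in parental samples and 13.4 and 13.3 CPM in library samples. Between the lines CDKN1B stood at -0.22 (SE 0.121, 7 of 10 guides down, adjusted p = 1 by edgeR and RRA).

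The gap between the 2 CDK inhibitors was smaller than its SE over guides. It was 0.07 (SE of the gap 0.278) in SETD2-mutant cells and 0.06 (SE 0.180) in parental cells over library. The 583 genes of their ID class, KIN, had medians of -0.01 and 0.02 in the same comparisons. CDKN1A and CDKN1B were above 57.3% and 64.5% of all tested genes in SETD2-mutant cells and above 80.7% and 86.6% in parental cells.

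RB1 (chromosome 13, 48303751 to 48481890) was enriched in SETD2-mutant cells. Its guides summed to 411 and 425 CPM in SETD2-mutant samples, 385 and 404 CPM in parental samples and 276 and 281 CPM in library samples. All 4 cell samples lay above the library samples, and the SETD2-mutant samples lay above the parental ones with a small gap. The log2 change was 0.51 (SE 0.163, a 1.43-fold level, adjusted p = 0.0143 by edgeR and RRA) in SETD2-mutant cells over library. There 9 of 10 guides were up, of which 7 passed, against 22.2% of all guides. In parental cells the change was 0.39 (SE 0.186), and the gene was not called (adjusted p = 0.166 by edgeR and RRA). There 7 of 10 guides were up and 6 of 10 passed upward, against 18.9% of all guides. With scaling on dummyguide guides these values turned to -0.42 and -0.33, and without SETD2-mutant replicate 1 the call was lost (0.55, adjusted p = 0.0546).

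That RB1 was called in one line and not in the other does not show a difference between them. The difference itself was 0.12 (SE 0.130, adjusted p = 0.845 by edgeR and RRA, with 7 of 10 guides up), and -0.09 with scaling on dummyguide guides. Guide 8 stood apart, with 46.3 and 53.8 CPM in SETD2-mutant samples, 86.4 and 87.1 CPM in parental samples and 26.6 and 27.6 CPM in library samples. It was the highest RB1 guide in parental cells (1.68) and the 1 that passed downward between the lines (-0.79), where 3 guides passed upward. Of all guides, 12.8% passed downward and 11.5% upward there. The SD over RB1 guides was 0.410 between the lines, beside a median SD of 0.560 over all genes. The median over guides was 0.63 in SETD2-mutant cells, 0.41 in parental cells over library and 0.24 between the lines.

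**Figure D3:**
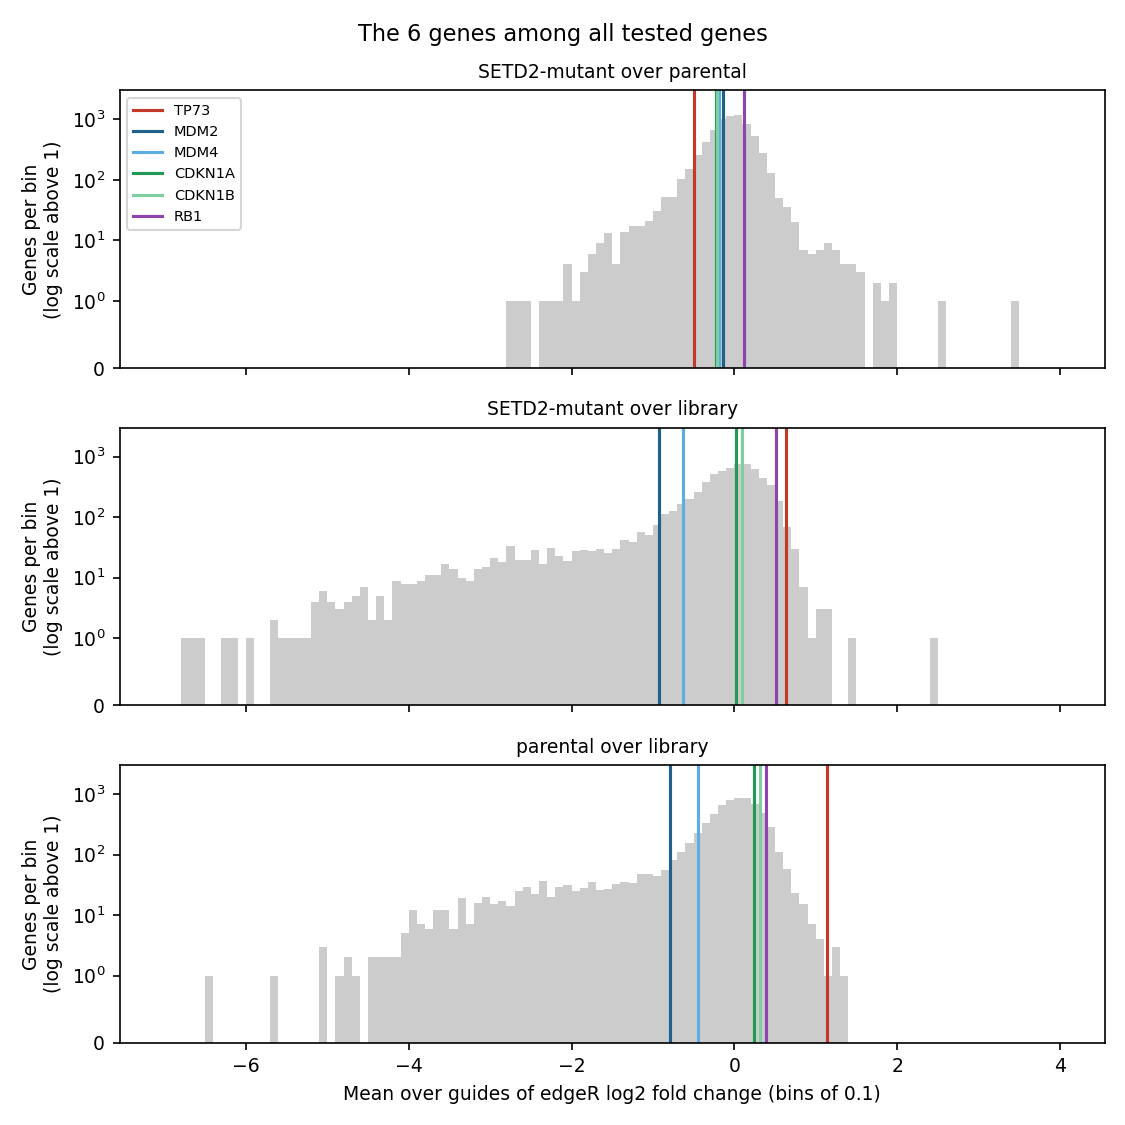
Number of tested genes per bin of 0.1 in mean log2 fold change (grey bars, log scale above 1) for the 3 comparisons, with a coloured line at the value of each of the 6 genes. TP73 lies at the right edge in parental over library (1.14, place 5 of 7090), while between the lines all 6 genes lie between -0.50 and 0.12, with the sign of RB1 turning on dummyguide scaling.

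Set in order of their change in SETD2-mutant cells over library, the genes were TP73, RB1, CDKN1B, CDKN1A, MDM4 and MDM2. The one gap between neighbours there that exceeded 2 times its SE was between CDKN1A and MDM4 (0.66, SE 0.252). The order in parental cells over library was the same. There gaps over 2 times their SE lay between TP73 and RB1 (0.75, SE 0.204) and between CDKN1A and MDM4 (0.69, SE 0.297). Both comparisons use the same library samples. Between the lines, no neighbouring pair differed by more than 2 times the SE of its gap. These SEs are over guides, which are not replicates, and neighbours were set by the same values. The gaps are therefore descriptive and not a test of a difference between genes. Over the 60 guides, 18 passed upward and 18 downward in SETD2-mutant cells over library, where 22.2% and 23.7% of all guides did. In parental cells over library 25 passed upward and 13 downward, where 18.9% and 21.1% of all guides did. Between the lines 4 passed upward and 10 downward, where 11.5% and 12.8% of all guides did.

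In sample values, 5 of 6 genes had both SETD2-mutant samples below both parental samples and 1, RB1, had them above. Of all genes, 38.8% and 26.9% did so. Against library, 4 of 6 genes had both samples of a line above both library samples and 2 of 6, MDM2 and MDM4, below. Of all genes, 36.1% lay above and 49.2% below in SETD2-mutant cells, and 39.3% above and 45.6% below in parental cells. The median change of the 6 genes between the lines was -0.20, beside -0.04 over all tested genes.

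**Figure D4:**
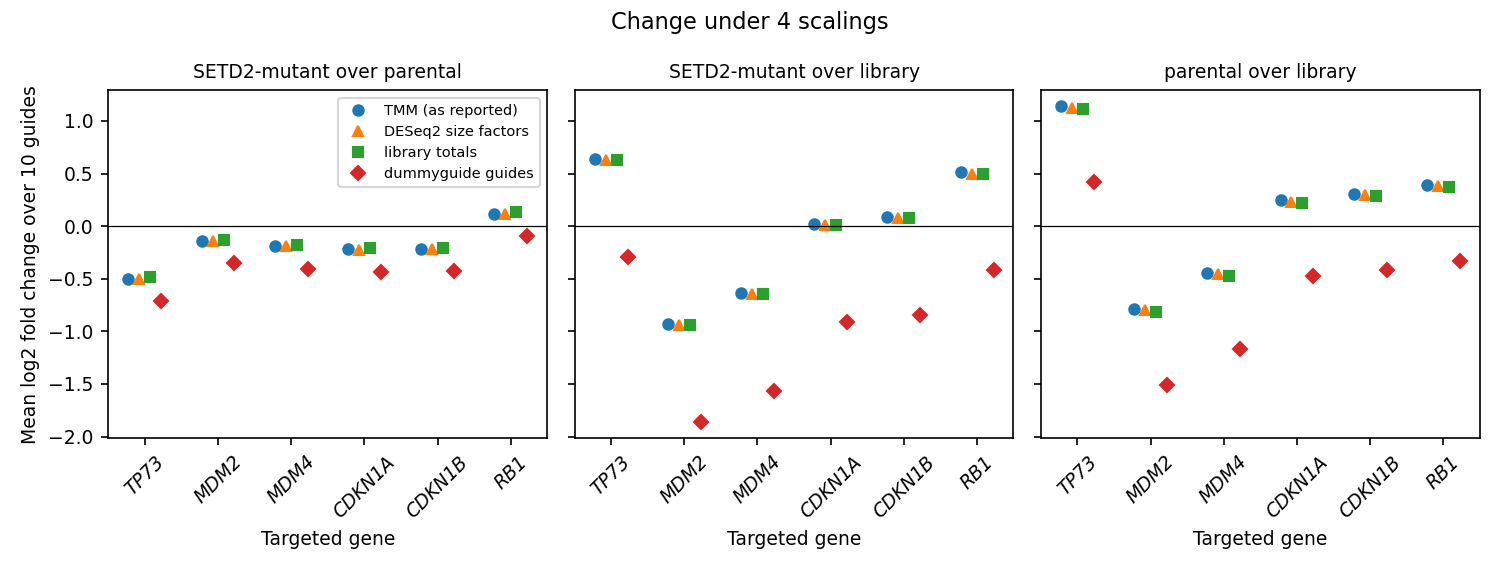
Mean log2 fold change over the 10 guides of each gene (vertical axis) in the 3 comparisons under TMM factors, DESeq2 size factors, library totals and scaling on dummyguide guides. The first 3 scalings nearly coincide, and dummyguide scaling moves TP73 to -0.29 in SETD2-mutant over library and to 0.42 in parental over library.

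Genes of most like pattern were sought over the 4 cell samples, by Euclidean distance between mean log2 changes from library. Nearest to TP73 were CDK5 (distance 0.131), a kinase best known in neurons, KDM5C (0.239), a demethylase of histone H3 lysine 4, and GATAD1 (0.241), a chromatin protein. These were the 3 genes within 0.25 of TP73, of 7052 compared. Nearest to MDM2 were JMJD6 (0.113), TP53BP1 (0.119), which guides the repair of DNA breaks and binds p53, and CCDC180 (0.130), with 29 genes within 0.25. Nearest to RB1 were PTPRN (0.0427), KRTAP19-8 (0.0608) and MC2R (0.0696), which encode a protein of secretory granules, a hair keratin-associated protein and the corticotropin receptor, with 305 genes within 0.25. MDM4 had 139, CDKN1A 583 and CDKN1B 521 genes within that distance.

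Regulators of p53 beyond the 6 genes had 11 measured members, with a median of -0.45 in SETD2-mutant cells over library, beside -0.05 over all genes. Of the 11, 4 were depleted and 1 was enriched there, where 9.04% and 1.11% of all genes were. The damage kinase ATM stood at -1.18 (SE 0.183) and the histone chaperone DAXX at -2.13 (SE 0.304). The ribosomal proteins RPL5 and RPL11, which can bind MDM2, stood at -4.89 (SE 0.645) and -4.81 (SE 0.953). Over 51 ribosomal protein genes the median was -4.13 in SETD2-mutant and -3.58 in parental cells over library. Such loss was thus not particular to RPL5 and RPL11. In parental cells over library 5 were depleted and 1 enriched, where 9.9% and 1.11% of all genes were. The list had a median of -0.55 there, beside -0.01 over all genes. ATM stood at -1.37 (SE 0.169), DAXX at -2.33 (SE 0.272) and RPL11 at -3.95 (SE 0.794). RPL5 (-3.98, SE 0.567) and TP53BP1 (-0.75, SE 0.219) complete that count and, like RPL11 in SETD2-mutant cells, were named after their values were seen. In SETD2-mutant cells over library TP53BP1 stood lower, at -0.91 (SE 0.324), and was not called. With scaling on dummyguide guides TP53BP1 was depleted in both lines. With scaling on dummyguide guides, 0 of 11 stood above 0 in SETD2-mutant cells and 1 of 11 in parental cells over library. Between the lines 0 of 11 were called by edgeR and RRA. At an unadjusted p under 0.05, 0 were depleted and 1 enriched, where 7.53% and 6.84% of all genes were. Limma called 1 depleted and 2 enriched, where it called 22% and 12.6% of all genes. The list had a median of -0.08, and the largest values were -0.91 (SE 0.536) for RPL5 and -0.86 (SE 1.03) for RPL11.

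Of 12 measured p53 target genes, 1 was enriched and 0 depleted in SETD2-mutant cells over library, where 1.11% and 9.04% of all genes were. The list had a median of 0.09, which turned to -0.84 with scaling on dummyguide guides. The enriched gene was BAX (0.61, SE 0.257, adjusted p = 0.0207 by edgeR and RRA), which opens the mitochondrial outer membrane in apoptosis. BAX lost its call without either SETD2-mutant replicate and turned to -0.32 with scaling on dummyguide guides. In parental cells over library 0 of 12 were called by edgeR and RRA, 0 were depleted and 1 enriched at an unadjusted p under 0.05, and limma called 2 depleted and 5 enriched. Of all genes, 12.1% were depleted and 9.38% enriched at that unadjusted p, and 31.3% and 23.6% by limma. There the largest values were 0.51 (SE 0.176, turned to -0.21 with scaling on dummyguide guides) for GADD45A and -0.43 (SE 0.183) for POLH. Between the lines 0 of 12 were called by edgeR and RRA. At an unadjusted p under 0.05, 0 were depleted and 2 enriched, where 7.53% and 6.84% of all genes were. Limma called 1 depleted and 2 enriched, where it called 22% and 12.6% of all genes. The largest values were 0.26 (SE 0.173) for BAX and 0.25 (SE 0.115) for C12orf5 (TIGAR).

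Other CDK inhibitors and partners of pocket proteins had 9 measured genes. In SETD2-mutant cells over library 0 were called by edgeR and RRA, 1 was depleted and 4 enriched at an unadjusted p under 0.05, and limma called 3 depleted and 5 enriched. Of all genes, 12% were depleted and 10.3% enriched at that unadjusted p, and 38% and 23.8% by limma. The median was 0.30, and -0.63 with scaling on dummyguide guides. The largest values there were -1.40 (SE 0.251) for FBXW7, the ubiquitin ligase adaptor that removes cyclin E, and 0.67 (SE 0.197, turned to -0.26 with scaling on dummyguide guides) for CDKN2A, which encodes p16 and the MDM2 inhibitor ARF. In parental cells over library 1 was enriched, CDKN2A (0.80, SE 0.205, adjusted p = 0.0417 by edgeR and RRA), and 1 depleted, FBXW7 (-1.25, SE 0.377, adjusted p = 0.0187). Of all genes, 1.11% were enriched and 9.9% depleted there. The calls of CDKN2A and FBXW7 did not hold with scaling on dummyguide guides. The CDKN2A call was also lost without parental replicate 2, and that of FBXW7 without parental replicate 1 and with the RRA limit set to 0.1. Between the lines 0 of 9 were called by edgeR and RRA. At an unadjusted p under 0.05, 1 was depleted and 0 enriched, where 7.53% and 6.84% of all genes were. Limma called 0 depleted and 1 enriched, where it called 22% and 12.6% of all genes. The largest values were 0.28 (SE 0.233) for FZR1 and -0.24 (SE 0.222) for CDKN1C.

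The list of drivers of entry into S phase had 8 measured genes. The inhibitors act on its cyclin-dependent kinases, and it also holds CKS1B, SKP1 and CUL1, parts of a ubiquitin ligase. Between the lines 2 were called, where 1.03% of all genes were enriched and 1.28% depleted. Both were enriched in SETD2-mutant over parental cells: CDK4 by 1.21 (SE 0.327, adjusted p = 2.19e-05 by edgeR and RRA) and CDK6 by 0.63 (SE 0.123, adjusted p = 0.00159), the cyclin D kinases that phosphorylate RB1, with 9 of 10 guides up for each. The same list held CKS1B at -0.66 (SE 0.417), CDC25A, a phosphatase that activates CDK2, at -0.63 (SE 0.278) and SKP1 at -0.60 (SE 0.305), none of them called and named here after their values were seen. At an unadjusted p under 0.05, 3 of the 8 were depleted and 3 enriched, and the counts by limma were also 3 and 3. Of all genes, 7.53% were depleted and 6.84% enriched at that unadjusted p, and 22% and 12.6% by limma. CDK4 stood at -0.26 (SE 0.249, not called) in SETD2-mutant cells and was depleted in parental cells at -1.47 (SE 0.426). CDK6 stood at 0.18 (SE 0.122) in SETD2-mutant cells over library, which turned to -0.75 with scaling on dummyguide guides, and at -0.45 (SE 0.0904) in parental cells over library, and was called in neither. The CDK4 call between the lines held under each of 18 alternatives (0.76 to 1.27), and that of CDK6 was lost without parental replicate 2. Against library, 4 of the 8 listed genes were depleted in SETD2-mutant cells and 5 of 8 in parental cells, beside 9.04% and 9.9% of all genes. In SETD2-mutant cells they were CKS1B (-2.48), SKP1 (-2.69), CDK2 (-0.94) and CUL1 (-1.61). In parental cells they were CDK2 (-1.19), SKP1 (-2.09), CUL1 (-1.70), CDK4 and, named after its value was seen, CKS1B (-1.82). CKS1B, SKP1 and CUL1 take part in the ubiquitin ligase that removes p27, the product of CDKN1B.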

How the data were processed

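Guides were counted in 6 samples. The authors deposited raw counts per guide, whole numbers with no scaling. MAGeCK and hg38 are named in the submitters' processing notes, and their role, version and settings are not given in the sources used here. Reads were single-end of 75 bp, per the labels' protocols. A guide entered the fit if its library counts averaged at least 30, which held for 71470 of 71526 guides, including all 60 of the 6 genes. The 100 dummyguide guides entered only as a scaling alternative. The kept guides were fitted with edgeR 4.0.16 (R 4.3.3, TMM, glmQLFit with robust, glmQLFTest), 6 samples in 1 model by group. RRA used a rank share limit of 0.25 and its exact probability under uniform ranks, for genes with 3 or more guides, rebuilt from its published description in place of MAGeCK. CPM values are on TMM-scaled totals, and sample-level log2 values add a prior count of 2. The script was tested on simulated data with known changes. There every guide of a changed gene had the same change, so differences between guides of a gene were not tried. Genes were placed by a RefSeq table of GRCh38.p14. Guide sequences and cut sites were not used here.

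The 6 genes, the 4 lists of neighbour genes and the tests were chosen with earlier results of these data known. The rule names the 6 genes, up to 4 called genes of each list and comparison with the lowest RRA p (the 2 largest changes where none was called), and the 3 genes of most like pattern, with at least 8 guides, for each of the 6 genes that was called. Some genes that it names are not reported here. Chi-square per degree of freedom between replicates was 12.9 in SETD2-mutant, 14.1 in parental and 1.37 in library samples, against about 1 from counting error. The main fit nevertheless shared a dispersion per guide across all groups. With only the groups compared, 66 genes in place of 91 were depleted between the lines and 76 in place of 73 enriched. Alternatives covered scaling, filter, test per guide, samples fitted, RRA limit, gene test (limma 3.58.1 on gene means, summed counts), median over guides, replicate block and each sample left out, with DESeq2 1.42.0 for size factors and guide tests.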

Additional observations from a re-analysis of the deposited data

How the results depend on the processing

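TP73 in parental over library kept its call under each of 18 alternatives with a test (0.42 to 1.16), and its median over guides was 1.20. With scaling on dummyguide guides signs turned for TP73 (-0.29), RB1 (-0.42), CDKN1A (-0.91) and CDKN1B (-0.84) in SETD2-mutant over library, for CDKN1A (-0.48), CDKN1B (-0.41) and RB1 (-0.33) in parental over library, for RB1 between the lines (-0.094) and for BAX in SETD2-mutant over library (-0.32), MDM2 in parental over library lost its call (-1.51), and 35 genes in place of 79 were enriched in SETD2-mutant over library. The cause was not tested.

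MDM2 lost its call with only the groups compared (parental over library, -0.79) and at an RRA limit of 0.1 (-0.93 in SETD2-mutant and -0.79 in parental over library). TP73 in SETD2-mutant over library was called with the replicate block (0.63), which changed no other call of the 6 genes and gave 88 depleted and 84 enriched genes between the lines, although replicate numbers did not pair the samples (correlations of same-numbered deviations of -0.0051 to -0.0025), and MDM4 there at an RRA limit of 0.5 (-0.64). Limma on gene means and summed counts per gene, which take no account of differences between guides, called 1561 and 1540 genes depleted and 895 and 1370 enriched between the lines, 2693 and 1824 depleted and 1687 and 2957 enriched in SETD2-mutant over library, and 2217 and 1656 depleted and 1674 and 3002 enriched in parental over library, against 91, 73, 641, 79, 702 and 79. Summed counts moved the median of all genes by 0.13 in SETD2-mutant and 0.11 in parental cells over library.

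With limma, calls were gained between the lines by TP73 (-0.51), CDKN1A (-0.22) and CDKN1B (-0.22), in SETD2-mutant over library by TP73 (0.62) and MDM4 (-0.64), and in parental over library by MDM4 (-0.45), CDKN1A (0.24), CDKN1B (0.30) and RB1 (0.39). With summed counts they were gained between the lines by TP73 (-0.45), MDM4 (-0.27), CDKN1A (-0.24) and CDKN1B (-0.14), in SETD2-mutant over library by TP73 (0.71), MDM4 (-0.62) and CDKN1B (0.23), and in parental over library by MDM4 (-0.35), CDKN1A (0.34), CDKN1B (0.36) and RB1 (0.50). At equal dropout of ribosomal protein genes, an alternative chosen after seeing the data and with no test, the changes between the lines were -0.59 for TP73, -0.016 for MDM2, -0.11 for MDM4 and 0.050 for RB1.

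Without 1 sample in turn, SETD2-mutant over library ran from 0.61 to 0.64 for TP73, from -0.98 to -0.92 for MDM2 and from 0.46 to 0.55 for RB1, with 50 to 85 genes enriched, the lowest without SETD2-mutant replicate 1. MDM2 in parental over library ran from -0.86 to -0.74. Values that were not called moved by over 1.5 times for MDM2 between the lines without parental replicate 1 (-0.070), for RB1 between the lines without SETD2-mutant replicate 2 (0.068), and for CDKN1A (0.014) and CDKN1B (0.051) in SETD2-mutant over library without SETD2-mutant replicate 1. The 60 guides had 97 or more counts in every sample. With 2 samples a group, the spread between replicates exceeded counting error in both lines. Whether depth or replicate spread limits the precision more was not tested.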
